A study of Mus musculus with 4 samples.

Results

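The cytosolic ribosomal protein genes encode the proteins that, with ribosomal RNA, build the cytosolic ribosome. They were taken by gene symbol: all rows named Rpl or Rps in the standard form, without pseudogene rows marked -ps, that had a log2 value of at least 0 in 2 or more libraries. Of 55339 symbols in the expression table, 83 met this rule. Rpl10l, a testis paralog of Rpl10, met it only because it is listed at 0 in every library, and it was not tested. The other 82 genes, 50 of the large subunit (Rpl) and 32 of the small subunit (Rps), are described here among 17303 genes tested. All 82 had values of 0 or more in all 4 libraries. The members closest to the limit were Rps10, at 0.20 in WT 5, and Rpl39l, at 0.49 in WT 5. The pattern also takes in Rpl6l, Rpl32l and Rps4l, which the GENCODE annotation of GRCm38 lists as processed pseudogenes.

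The libraries were made from polyA RNA of leukemia cells of mouse bone marrow (C57BL/6). There were 2 YBX1-/- libraries, replicates 1 and 3, whose titles call them cKO, and 2 WT libraries, replicates 4 and 5. YBX1 is an mRNA-binding cold-shock domain protein, and the series title places the comparison in the upkeep of myeloid leukemia cells and their mRNAs. The driver of the leukemia, the Cre line behind the knockout, the age of the mice and any pooling are not given in the sources used here, so the p-values measure only the spread between these libraries, which may be technical. The title of YBX1-/- 3 begins with RNA-seq2 and those of the other 3 libraries with RNA-seq1, and what that number stands for is not stated. Pairs of values below run in order of replicate number, 1 and 3 for YBX1-/- cells and 4 and 5 for WT cells, and all values are the authors' normalized log2 expression unless stated.

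Ribosomal proteins are made in near-equal amounts, since each ribosome holds a single copy of most of them, and their mRNAs are among the most abundant in growing cells. These mRNAs typically begin with a C followed by a run of pyrimidines, the terminal oligopyrimidine (TOP) motif, through which mTOR signalling and the RNA-binding protein LARP1 set how much of them is translated and kept. In blood, loss of 1 copy of several of these genes causes Diamond-Blackfan anaemia, and loss of RPS14 is part of the myelodysplastic syndrome with a deletion on the long arm of human chromosome 5.

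The start of the transcript is shown for 6 members because it holds the motif that the family is known for. The first 3 of them were low and the other 3 high in WT 4 against the median of the other libraries. Rps21 was low in both WT libraries, at 5.19 in WT 4 and 4.89 in WT 5. Each line gives 50 bases before the annotated start and 20 bases from it, 5′ to 3′, on GRCm38.p6 (RefSeq), with the C at the start and the pyrimidines that follow it in capitals.
Rpl14 (chr9:120571467-120571536, plus strand): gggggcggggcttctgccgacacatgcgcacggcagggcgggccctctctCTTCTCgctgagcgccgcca
Rps15a (chr7:118116128-118116197, minus strand): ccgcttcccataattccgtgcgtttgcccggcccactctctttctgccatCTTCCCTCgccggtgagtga
Rps21 (chr2:180257329-180257398, plus strand): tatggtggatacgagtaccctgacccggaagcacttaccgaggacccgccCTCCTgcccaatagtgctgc
Rpl38 (chr11:114668530-114668599, plus strand): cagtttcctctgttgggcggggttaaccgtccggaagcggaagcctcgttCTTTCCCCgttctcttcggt
Rpl28 (chr7:4792915-4792984, plus strand): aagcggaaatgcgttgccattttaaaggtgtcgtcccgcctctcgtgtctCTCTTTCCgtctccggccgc
Rps27 (chr3:90213629-90213698, minus strand): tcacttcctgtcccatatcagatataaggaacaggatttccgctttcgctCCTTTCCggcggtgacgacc

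Of the 82 members, 60 had an entry in the RefSeq promoter table. Shares here are over gene symbols, and a symbol was counted if any of its promoters matched. A C followed by at least 4 pyrimidines stood exactly at the annotated start in 14 of these 60 (23.3%), against 3.01% of all 27025 symbols. Such a run began within 20 bases of the start in 83.3% of members and 53.3% of all symbols. Searched on both strands of the 300-base window, the fixed TOP-like string CTCTTTCC was in 16.7% of members and 3.57% of all symbols. CCGGAAG, the core bound by ETS-family factors such as GABP, was in 41.7% of members and 9.93% of all. AAGATGGC, the core of the YY1 motif, was in 8.33% and 3.19%, and TATAAA in 11.7% and 15.7%. Exact runs at the start were in 8 of 32 members high in WT 4 and in 4 of 17 low there. These are matches of letters in a fixed window and not sites.

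As a group the 82 genes lay in the upper part of the expression range. Their median percentile among the tested genes was 90.1 in YBX1-/- 1 and 93.6 in YBX1-/- 3, against 92.1 in WT 4 and 87.8 in WT 5. Whether the values are scaled to gene length is not given in the sources used here, so an order of levels between genes is a description of these values only. By the mean over the 3 libraries other than WT 4, the highest members were Rpl5, Rps25 and Rplp0, and the lowest Rpl39l, Rpl32l and Rps10. Rps25, whose protein helps viral internal ribosome entry sites recruit the small subunit, was at 12.42 and 13.10 in YBX1-/- cells, against 19.24 and 11.94 in WT cells. Both YBX1-/- values of Rps25 lay above WT 5 and below WT 4.

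The median member value was 9.66 and 10.16 in YBX1-/- cells, against 10.94 and 9.28 in WT cells. Over all tested genes the medians were 5.39 and 5.24 in YBX1-/- cells, against 4.97 and 5.39 in WT cells. WT 4 differed from the other libraries in spread more than in its middle: the SD over members was 5.55 there, and 2.17, 2.26 and 2.28 in YBX1-/- 1, YBX1-/- 3 and WT 5. Across the 82 members Pearson's r was 0.98 between the YBX1-/- libraries, 0.97 between each of them and WT 5, and 0.54 to 0.56 between WT 4 and the other 3 libraries, as a description over genes that share these libraries.

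**Figure D1:**
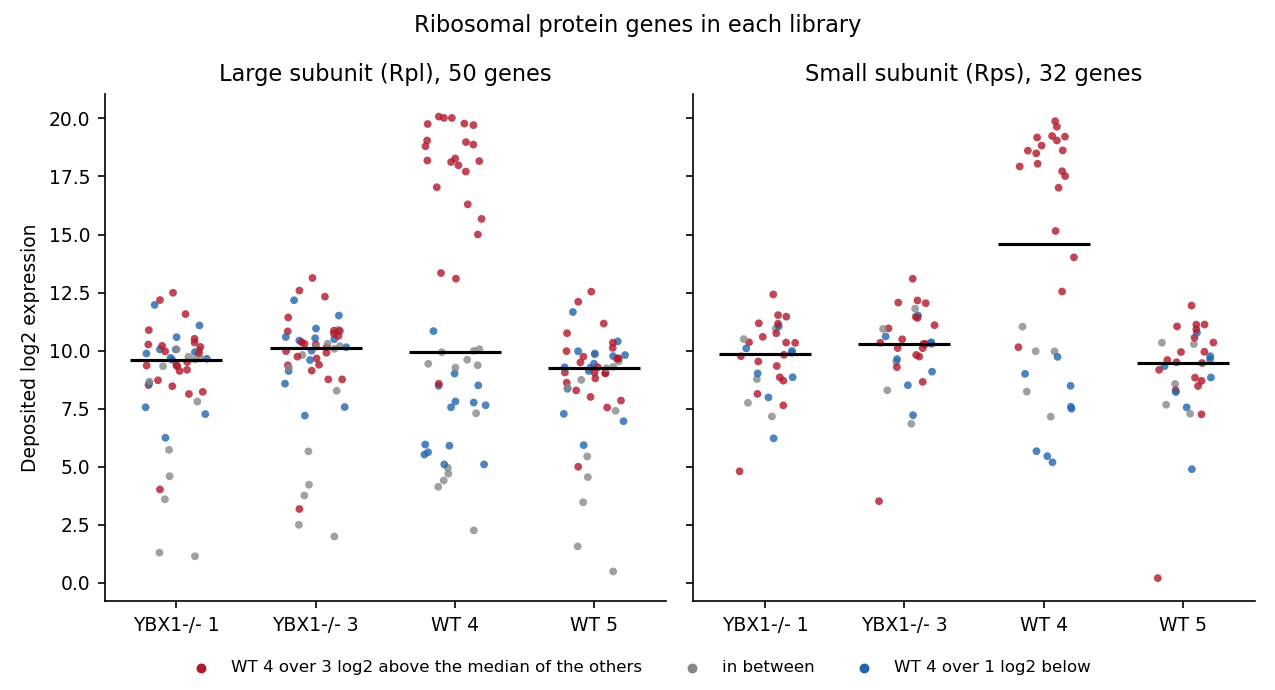
Normalized log2 value (vertical axis) of each of the 82 ribosomal protein genes in each library (horizontal axis), large subunit on the left and small subunit on the right. Each point is a gene, black lines are medians and colours show how WT 4 stood to the median of the other libraries. In WT 4 the genes part into a high and a low set, with an SD of 5.55 log2 over genes against 2.17 to 2.28 in the other libraries.

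Limma, a linear model fitted to all 17303 genes, called 0 of the 82 members and 0% of all genes at an adjusted p under 0.05. The smallest adjusted p among the members was 0.826, and 0 members but 651 of all genes had an unadjusted p under 0.05. The median difference between YBX1-/- and WT means was -1.07 log2 for the 82 genes, -0.24 for the large subunit and -2.09 for the small subunit, against -0.09 for all genes. The sign depended on the scaling and on WT 4: with quantile normalization, which also moved the median of all genes to 0.16, the members' median was 0.67, and without WT 4 it was 0.58. Both YBX1-/- values lay above both WT values in 27 members, 18 large and 9 small, which is 32.9% of members beside 17.3% of all genes. At matched levels the shares were close: 31.3% of the 67 members with a level of at least 8 (the mean without WT 4), against 30.6% of the 4171 other genes at that level. They lay below both WT values in 1 member, the pseudogene Rpl6l, beside 18.8% of all genes. The groups overlapped in the other 54.

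Against WT 5 alone, the WT library that resembled the YBX1-/- ones, the members lay higher in YBX1-/- cells. Both YBX1-/- values were above WT 5 in 72 of the 82 members, 43 of 50 large and 29 of 32 small, beside 41.8% of all genes. At a level of at least 8 it was 91.0% of members, against 40.8% of other genes and 56.6% of those with a transcript under 1000 nt. Both were below WT 5 in 2 members, Rpl6l and Rps4l, both pseudogenes, beside 33.4% of all genes. The median difference was 0.58 log2 (1.49-fold) for the members, with quartiles at 0.38 and 0.81, and 0.07 log2 for all genes. The subunits were close, at 0.56 for the large and 0.59 for the small. The size of this difference depended on the YBX1-/- library. The median was 0.31 for YBX1-/- 1 minus WT 5 and 0.87 for YBX1-/- 3 minus WT 5, and YBX1-/- 3 was above YBX1-/- 1 in 74 of 82 members, by a median of 0.54. In 20 of the 82 members (24.4%) the lower YBX1-/- value lay above WT 5 by more than the YBX1-/- libraries differed. This was close to the 20.5% of all genes. The YBX1-/- mean differed from WT 5, in either direction, by more than that in 47 of 82 members and 8771 of 17303 genes. With WT 4 left out limma called 0 members, their lowest adjusted p being 0.477, and Rps10 and Rpl29 alone had an unadjusted p under 0.05. With 1 WT library left, that library is assumed to vary like the YBX1-/- pair.

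Part of the step from YBX1-/- 1 to YBX1-/- 3 was shared by other short, abundant genes. The members' annotated transcripts had a median length of 761 nt, for the 79 members with a length, against 2792 nt for all genes. Among other genes with a level of at least 8 and a transcript under 1000 nt, 325 in all, the median was 0.07 for YBX1-/- 1 minus WT 5 and 0.49 for YBX1-/- 3 minus WT 5. Genes of 1000 to 2000 nt had 0.07 and 0.13, and longer ones 0.07 and -0.11. The 67 members at the same level had 0.32 and 0.88, above each length class in both YBX1-/- libraries. The part of transcript length and of the RNA-seq number in the members' difference was not tested.

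**Figure D2:**
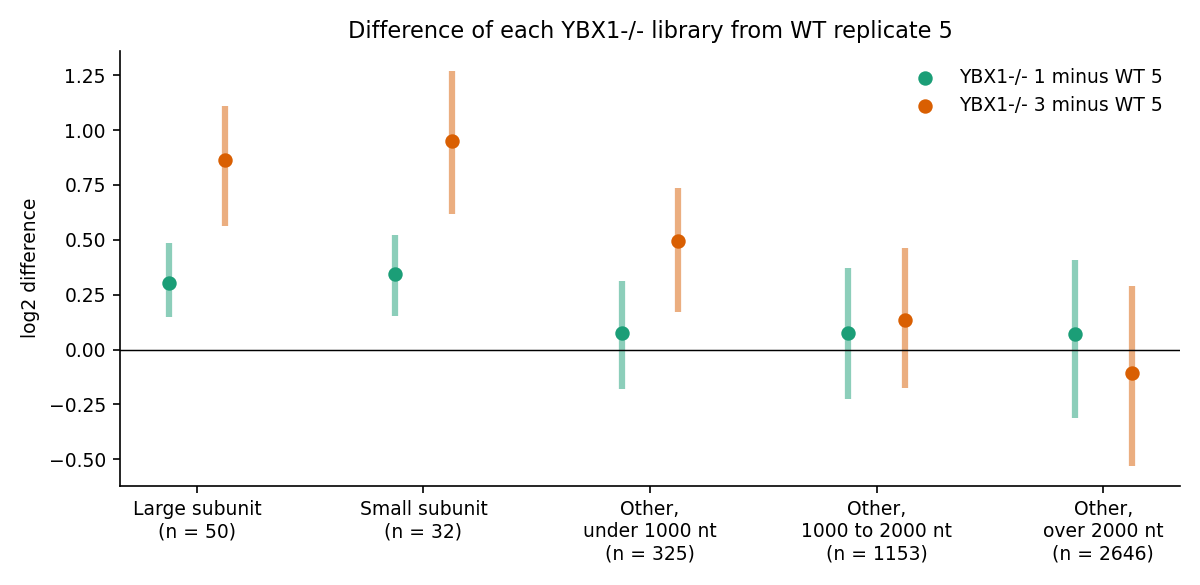
Difference from WT 5 (log2, vertical axis) for YBX1-/- 1 and YBX1-/- 3, for large-subunit and small-subunit genes and for other genes with a level of at least 8, by transcript length; points are medians and bars run between the quartiles, over the number of genes under each label. The medians for YBX1-/- 3 go down with length among other genes, at 0.49, 0.13 and -0.11, and those of the ribosomal protein genes are 0.86 and 0.95.

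The leukemia cells were checked with marker lists. Of 12 myeloid markers, 11 were above 5 in 2 or more libraries, and the log2 of their summed values was 17.04 and 17.03 in YBX1-/- cells, against 24.22 and 16.55 in WT cells. Of 10 erythroid markers only Tfrc was, and 1 was listed at 0 throughout. The log2 of the summed erythroid values was 8.74 and 8.01 in YBX1-/- cells, against 8.14 and 7.57 in WT cells. For B cells the log2 sum was 8.89 and 7.99 in YBX1-/- cells, against 6.53 and 8.81 in WT cells, with 1 of 7 markers at 0. For T and NK cells it was 9.37 and 9.45 in YBX1-/- cells, against 19.38 and 8.42 in WT cells, and Nkg7 alone of the list was above 5, with 5 of 8 markers at 0. Neither of these lymphoid lists was above 5 in more than 2 markers. Megakaryocyte markers had a log2 sum of 3.70 and 2.46 in YBX1-/- cells, against 3.58 and 5.52 in WT cells, and stromal and endothelial markers of 6.64 and 6.33 in YBX1-/- cells, against 7.14 and 6.16 in WT cells. The myeloid, erythroid, T and NK, and stromal and endothelial sums lay above WT 5 in both YBX1-/- libraries. Each sum mostly follows its highest marker, in the myeloid list Elane, at 16.48 and 16.55 in YBX1-/- cells, against 15.84 in WT 5. By marker, 2 of 12 myeloid ones lay above WT 5 in both YBX1-/- libraries and 5 below, with a median difference of -0.08. Of the tested erythroid markers 3 of 7 lay above and 1 below. All 2 tested T and NK and all 3 tested stromal and endothelial markers lay above, some of them at the floor. In YBX1-/- 1 Cd3d was at 0.5464, against 0.5448 in WT 5, and Kdr at 0.1875, against 0.1873. Of the tested B cell markers 1 of 3 lay above and 1 below, and of the megakaryocyte ones 3 of 4 lay above and 1 below. The part of these lists in the members' difference was not tested. In these bulk samples fewer cells of a type and less RNA per cell cannot be told apart. Ybx1 itself was at 7.29 and 8.33 in YBX1-/- cells, against 19.70 and 10.002 in WT cells.

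The stalk proteins recruit translation factors to the large subunit. All 4 stalk genes lay above WT 5 in both YBX1-/- libraries and 1 lay above both WT libraries. Over all members these shares were 87.8% and 32.9%, and over all genes 41.8% and 17.3%, for this list and the role lists below. Rplp1 was at 9.88 and 10.59 in YBX1-/- cells, against 5.96 and 9.28 in WT cells. It was the stalk gene above both WT values, with a limma difference of 2.61 (SE 1.34, adjusted p 0.826), and the stalk gene with the largest difference from WT 5, 0.95. Its partner Rplp2 was at 8.23 and 8.76 in YBX1-/- cells, against 15.67 and 7.85 in WT cells. Rplp0, the base to which both attach, was at 12.18 and 12.59 in YBX1-/- cells, against 20.08 and 12.10 in WT cells. Rplp2 and Rplp0 thus overlapped the WT range only through WT 4, and their differences from WT 5 were 0.65 and 0.28. Members of 1 stalk stood on opposite sides in WT 4.

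The proteins of the 5S particle and the peptidyl transferase region lie at or near the catalytic core of the large subunit. In 5 of 6 both YBX1-/- values lay above WT 5, and in 4 they lay above both WT values. Over all genes the shares were 41.8% and 17.3%. Rpl3, whose protein reaches towards the peptidyl transferase centre, was at 11.08 and 11.51 in YBX1-/- cells, against 8.504 and 10.40 in WT cells. Rpl4, whose protein lines the exit tunnel, was at 11.97 and 12.17 in YBX1-/- cells, against 10.84 and 11.66 in WT cells. Rpl5, which carries the 5S ribosomal RNA and with RPL11 can bind the p53 regulator MDM2, was at 12.49 and 13.13 in YBX1-/- cells, against 20.02 and 12.54 in WT cells. The first pair lay above both WT libraries, while the YBX1-/- values of Rpl5 lay on both sides of WT 5, within their own spread.

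At the exit tunnel, through which the new protein leaves, 7 of 8 genes lay above WT 5 and 5 lay above both WT values. Among all genes 41.8% and 17.3% did. Rpl26, whose protein also binds p53 mRNA, was at 10.05 and 10.53 in YBX1-/- cells, against 9.01 and 9.44 in WT cells, clear of both WT libraries. Rpl35, a docking protein at the tunnel mouth, was at 9.91 and 10.63 in YBX1-/- cells, against 15.00 and 9.66 in WT cells. Rpl19 was at 10.06 and 10.43 in YBX1-/- cells, against 8.49 and 9.98 in WT cells. The lower YBX1-/- value of Rpl19 exceeded WT 5 by less than the YBX1-/- libraries differed from each other.

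Genes of the decoding site and the mRNA channel of the small subunit lay above WT 5 in 7 of 9 cases, and above both WT values in 2. The all-gene shares were 41.8% and 17.3%. Rps27a, which is made as a fusion with ubiquitin, was at 10.09 and 10.61 in YBX1-/- cells, against 8.9999 and 9.33 in WT cells. This was 1 of the widest gaps of the family, with a limma difference of 1.19 (SE 0.91, adjusted p 0.826). Rps2, at the mRNA entrance, was at 10.59 and 10.49 in YBX1-/- cells, against 18.83 and 9.94 in WT cells. It was above WT 5 in both YBX1-/- libraries and far below WT 4.

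The widest separations above both WT libraries were in Rps21, Rps29, Rps27a, Rpl9 and Rpl3. Rps21, a small-subunit gene on chromosome 2, was at 6.22 and 7.22 in YBX1-/- cells, against 5.19 and 4.89 in WT cells, with a limma difference of 1.68 (SE 0.73, adjusted p 0.826). Rps29, which encodes a zinc-binding protein of the subunit head and lies on chromosome 12, was at 9.02 and 9.63 in YBX1-/- cells, against 5.67 and 8.22 in WT cells. Rpl9, whose protein sits beside the stalk, was at 10.58 and 10.95 in YBX1-/- cells, against 7.81 and 9.87 in WT cells. In all 3 both YBX1-/- libraries were higher than both WT libraries, and in Rps21 alone of the 5 genes WT 4 lay above WT 5. The limma differences of Rps29 and Rpl9 were 2.38 (SE 1.08) and 1.92 (SE 1.13), both with an adjusted p of 0.826.

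**Figure D3:**
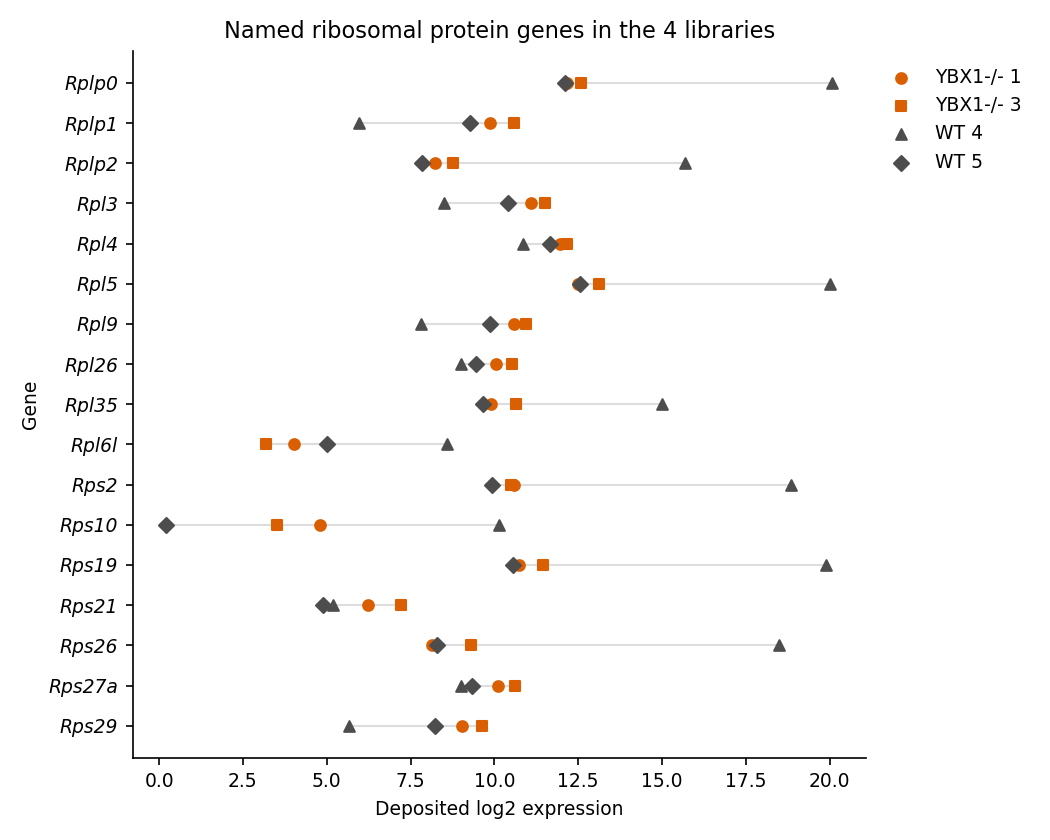
Normalized log2 value (horizontal axis) of 17 ribosomal protein genes (vertical axis) in single libraries; circles and squares are YBX1-/- 1 and 3, triangles and diamonds are WT 4 and 5, and a grey line joins the lowest and the highest value. In Rplp1, Rpl3, Rpl4, Rpl9, Rpl26, Rps21, Rps27a and Rps29 both YBX1-/- points lie above both WT points, while in Rplp0, Rpl5, Rps19 and Rps26 the WT 4 point lies far above the other 3.

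Of the 11 genes linked to Diamond-Blackfan anaemia or to RPS14 loss, 9 lay above WT 5 in both YBX1-/- libraries and 1 lay above both WT values. The all-gene shares were 41.8% and 17.3%. In WT 4, 10 of the 11 were over 3 log2 above the other libraries, beside 51.2% of members and 11.3% of all genes. Rps10 was at 4.80 and 3.52 in YBX1-/- cells, against 10.15 and 0.20 in WT cells, with the largest difference from WT 5 of the family, 3.96, and an unadjusted p of 0.0355 but an adjusted p of 0.477 in limma without WT 4. Its YBX1-/- values lay between the WT values. It shares 20.6% of its exonic length on the same strand with the read-through gene RPS10-NUDT3, which is listed at 0, so its low values are uncertain. Rpl35a was at 9.36 and 9.98 in YBX1-/- cells, against 18.80 and 9.06 in WT cells. It lay above WT 5 in both YBX1-/- libraries, by a mean of 0.61.

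Several members have tissue-restricted or stress-linked paralogs. In such pairs 8 of the 9 tested genes lay above WT 5 in both YBX1-/- libraries, beside 41.8% of all genes. Rpl39l, a paralog of Rpl39 best known from the testis, was at 1.14 and 1.995 in YBX1-/- cells, against 2.26 and 0.49 in WT cells, among the lowest values of the family. Rpl10 was at 9.94 and 10.49 in YBX1-/- cells, against 7.76 and 9.76 in WT cells, above both WT libraries. Rps4l, annotated as a transcribed processed pseudogene of the Rps4 family, was at 7.16 and 6.85 in YBX1-/- cells, against 7.16 and 7.28 in WT cells, below WT 5. Rpl6l, the other member below WT 5, was at 4.02 and 3.18 in YBX1-/- cells, against 8.58 and 4.9998 in WT cells, with a limma difference of -3.19 (SE 1.38, adjusted p 0.826). The pseudogene Rpl32l was at 1.30 and 2.50 in YBX1-/- cells, against 4.13 and 1.57 in WT cells. None of the 3 pseudogenes had both YBX1-/- values above WT 5, while 72 of the 79 protein-coding members did.

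WT 4 split the family. Thresholds chosen after the values were seen put 42 members over 3 log2 above the median of the other 3 libraries (23 large, 19 small), 22 over 1 log2 below it (14 large, 8 small) and 18 between. In the high set WT 4 ran between 8.58 and 20.08, and in the low set between 5.10 and 10.84. Over all genes 11.3% were over 3 above and 29.3% over 1 below. Abundant genes in general split in WT 4: of members with a level of at least 8, 58.2% were over 3 above and 26.9% over 1 below, against 21.7% and 58.4% of other genes at that level, and 36.6% and 46.2% of those with a transcript under 1000 nt. The sets had similar levels elsewhere, with a median over the other 3 libraries of 9.93 in the high and 9.89 in the low set, and similar median differences from WT 5, 0.61 and 0.53. Of the 27 members with both YBX1-/- values above both WT values, 21 came from the 22 low ones. Without WT 5, limma called 42 members lower, 51.2% beside 14.5% of all genes, and these were exactly the 42 high ones. It called 15 higher, 18.3% beside 14.2% of all genes, all from the low set. At a level of at least 8 it called 20.9% of members higher, against 45.4% of other genes, and 58.2% of members lower, against 22.4% of other genes. With 1 WT library left, these calls and the split rest on the same WT 4 values.

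The high side of the split was also seen in rows for pseudogene copies, while their low values left little room for the low side. The table holds 300 -ps rows of this family, of which 93 passed the filter, all named after a member. Of 49 such rows whose parent gene was in the high set, 42 (85.7%) were themselves over 3 log2 above the other libraries in WT 4. Of 35 rows with a parent in the low set, 4 (11.4%) were, and of 9 with a parent between, 3 (33.3%). Among the 93 tested rows 0 were over 1 log2 below the other libraries. But these rows lay near the floor, with a median level without WT 4 of 1.21, against 9.735 for the members. A low WT 4 value could therefore hardly show in them. Some rows also passed the filter only with the help of WT 4, so the high shares are in part set by the filter. Rps25-ps1, for example, was at -1.81 and 1.93 in YBX1-/- cells, against 9.16 and -1.87 in WT cells. The rows with a low parent had a median WT 4 difference from the other libraries of 1.08, against -2.10 for the low members. Rpl17-ps8, a copy of the high member Rpl17, was at 2.51 and 1.47 in YBX1-/- cells, against 12.62 and 2.25 in WT cells. Rpl9-ps6, a copy of the low member Rpl9, was at 4.56 and 4.87 in YBX1-/- cells, against 4.71 and 3.68 in WT cells. Reads of a gene and of a near-identical copy cannot be told apart in gene-level values where the counting splits them, so members with copies are uncertain to that extent: 60 of the 82 have -ps rows. The median -ps row differed from WT 5 by 0.12 log2 and the median member by 0.58, at levels too unlike to compare them. Same-strand overlap with another gene covered over 20% of the exonic length of Rpl13a, Rpl24 and Rps10.

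**Figure D4:**
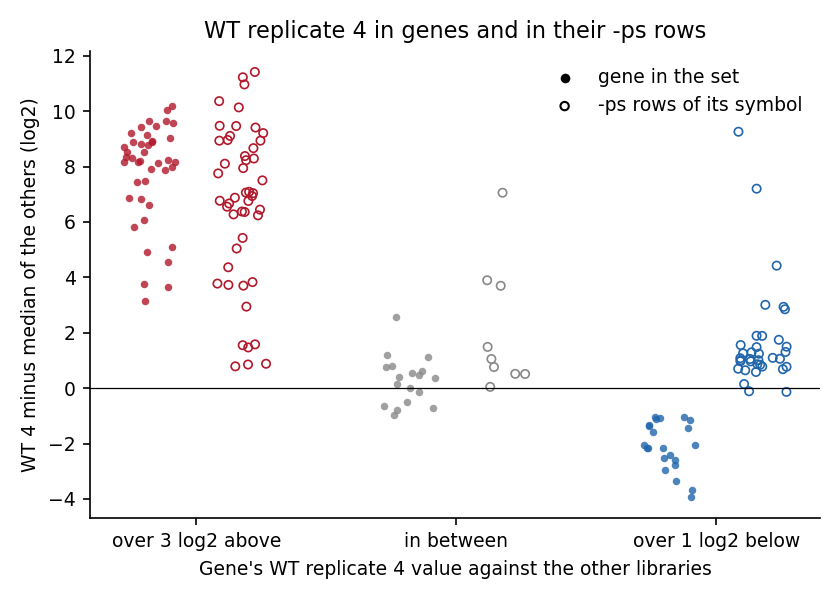
WT 4 minus the median of the other libraries (log2, vertical axis) for each ribosomal protein gene (filled points) and for the -ps rows of its symbol (open points), by the set of the gene (horizontal axis). Of 49 rows with a gene over 3 above, 42 are over 3 above, and of 35 rows with a gene over 1 below, 4 are. The -ps rows lie near the floor, at a median level without WT 4 of 1.21, which leaves little room below.

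In the authors' deposited table of fold changes, whose sign was read as YBX1-/- over WT, 18 members were called lower at an adjusted p under 0.05 and 0 higher. That is 21.95% of members beside 3.96% of all genes for lower, with 0.157% of all genes called higher. At a level of at least 8 the deposited table called 23.9% of members lower, against 8.34% of other genes. They included Rps26, Rpl37a, Rps27l, Rps19, Rpl31, Rpl36, Rps7, Rpl37, Rps27, Rps9, Rplp0, Rpl38, Rpl34, Rps3, Rpl5 and the pseudogenes Rpl6l and Rpl32l. Of the 18, 17 were in the set high in WT 4. Rps26, whose protein lines the mRNA exit channel, was at 8.14 and 9.29 in YBX1-/- cells, against 18.50 and 8.29 in WT cells, and its log2 fold change in the authors' deposited table was -8.65 with an adjusted p of 9.26e-04. Rpl37a, a zinc-binding large-subunit protein gene, was at 8.47 and 9.14 in YBX1-/- cells, against 18.12 and 8.01 in WT cells, and the authors' deposited table gave -8.37 with an adjusted p of 0.00129. Rps27l, a paralog of Rps27 induced by p53, was at 9.53 and 10.11 in YBX1-/- cells, against 19.18 and 9.50 in WT cells, with a deposited log2 fold change of -8.17 in the authors' deposited table. Rps19, the gene most often mutated in Diamond-Blackfan anaemia, was at 10.75 and 11.46 in YBX1-/- cells, against 19.88 and 10.56 in WT cells, and the authors' deposited table gave -7.63. In all 4 the YBX1-/- mean lay above WT 5, by 0.42, 0.80, 0.32 and 0.54, and far below WT 4. The limma difference of Rps26 was -4.68 (SE 3.60, adjusted p 0.826), and without WT 4 it was 0.42.

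The deposited fold changes also departed from the deposited columns. The authors' deposited table gave negative values for 64 members and positive ones for 18, with a median of -4.38, against -0.62 over all genes with a value. For the 42 members high in WT 4 the deposited value lay within 1 log2 of the ratio of linear means from the columns in 42 of 42. It did so in 9 of 18 members between and 11 of 22 members low in WT 4. In all it did so in 75.6% of members and 68.3% of all genes. Of the 20 members outside that margin, 19 had a deposited value below the column ratio. Of the 27 members with both YBX1-/- values above both WT values, 14 had a negative fold change in the authors' deposited table, such as -4.48 for Rpl4 and -4.48 for Rpl26. Over all genes this held for 335 of 3000. The deposited p-value was exactly 1 for 17 of 82 members and 1549 of 17185 genes. The members' fold changes at that p in the authors' deposited table ran between -8.63 (Rpl7) and -4.69 (Rpl36a). How these p-values were reached is not given in the sources used here.

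**Figure D5:**
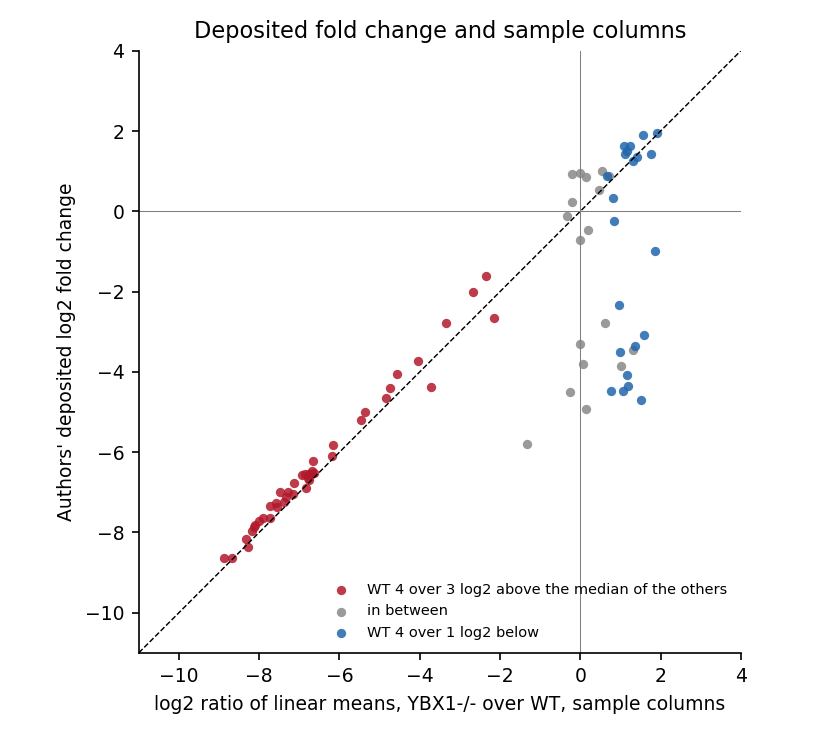
Log2 fold change in the authors' deposited table (vertical axis) against the log2 ratio of linear means from the deposited columns (horizontal axis), for each of the 82 ribosomal protein genes, coloured by how WT 4 stood to the other libraries. All 42 genes high in WT 4 lie within 1 log2 of the dashed line of equality, and 19 other genes lie over 1 below it.

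Genes that work with the ribosomal proteins were compared in the same way. Limma called 0 of them, the all-gene share being 0%. Of 19 other TOP mRNAs and ribosome-linked genes, 9 lay above WT 5 in both YBX1-/- libraries and 0 below, with a median difference of 0.25. Over all genes 41.8% lay above and 33.4% below, for this list and the lists that follow. Pabpc1, which encodes the poly(A)-binding protein, was at 11.06 and 10.24 in YBX1-/- cells, against 20.21 and 10.94 in WT cells. Btf3, a nascent-chain factor gene, was at 9.12 and 9.31 in YBX1-/- cells, against 18.88 and 8.42 in WT cells. Limma gave both an adjusted p of 0.826. Both were high in WT 4, and Btf3 alone of the pair lay above WT 5 in both YBX1-/- libraries. Of 20 assembly and export factors, 13 lay above WT 5 and 2 below, with a median of 0.32. Wdr12, a factor of large-subunit assembly, was at 10.61 and 10.59 in YBX1-/- cells, against 20.11 and 9.68 in WT cells, and Sbds, which helps release the factor EIF6 from the large subunit, at 10.34 and 10.21 in YBX1-/- cells, against 18.84 and 9.83 in WT cells. Of 10 regulators of mTOR and TOP mRNAs, 3 lay above and 3 below WT 5, with a median of -0.24. Eif4ebp1, an mTOR target that holds back translation, was at 11.89 and 12.19 in YBX1-/- cells, against 20.43 and 11.90 in WT cells, and Rheb, the activator of mTOR, at 11.40 and 11.42 in YBX1-/- cells, against 9.09 and 11.004 in WT cells, above both WT libraries. The regulators thus had no shared direction, and the median of each of these lists was below the 0.58 of the members. That order did not hold for YBX1-/- 1 minus WT 5 alone, where assembly and export factors had a median of 0.48 and the members 0.31. For YBX1-/- 3 minus WT 5 these medians were 0.19 and 0.87. Median transcript lengths were 1713.5, 2824.5 and 5901 nt for the TOP, assembly and regulator lists, against 761 nt for the members. The part of length in this order was not tested. In WT 4, 7 of the 19 TOP genes, 4 of the 20 assembly factors and 1 of the 10 regulators were over 3 log2 above the other libraries. Over 1 below were 4, 9 and 5. Among all genes 11.3% and 29.3% were. The genes named from these lists had the largest differences with WT 4 included, and all but Rheb were high in WT 4. They do not stand for their lists there.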

How the data were processed

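The authors deposited 1 table with normalized log2 expression for 55339 gene symbols in 4 libraries, and a log2 fold change, p-value and adjusted p-value for each gene. CASAVA, HISAT2 2.1.0, featureCounts, DESeq2 and the build GRCm38 are named in the submitters' processing notes; the normalization behind the log2 values is not given in the sources used here. No counts were analysed here, so depth is unknown and no counting interval is given. Genes under the expression filter cannot be told from genes not sampled.

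The deposited fold change is headed WT vs. cKO, but over 17185 genes it rises with YBX1-/- minus WT in the columns (Pearson's r = 0.78) and was read that way. Genes with a log2 value of at least 0 in 2 or more libraries and not 0 throughout (17303) were fitted with limma 3.58.1 in R 4.3.3, with a mean-variance trend, no covariate and Benjamini-Hochberg adjustment over all of them, at a threshold of 0.05. The limma script was run on simulated data with an equal spread in all libraries and none like WT 4. It recovered 19 of 50 genes changed by 1 log2 and 50 of 50 changed by 2, with 12 false calls. That run does not show what limma could find in these libraries. The other differences are medians and counts, with no test. Alternatives were other filters, scalings and pseudocounts, limma without a trend, and each library left out.

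The members and lists were chosen with earlier results of these data known. Genes are named by rule: members called in the deposited table (4 in full), the 5 widest gaps on each side, the largest, middle and smallest difference from WT 5 of each role list, the highest and lowest levels, members at the filter, and the 2 largest differences of each outside list. Genes in the transcript-start lines, and Rpl7, Rpl29, Rpl36a, Rpl17-ps8, Rpl9-ps6, Rps25-ps1, Rpl13a, Rpl23a and Rpl24, were chosen after their values were seen. Coordinates and promoters are from RefSeq GRCm38.p6, and overlaps and lengths from GENCODE on GRCm38. A few genes that these rules name are not reported here.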

Additional observations from a re-analysis of the deposited data

How the results depend on the processing

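Limma called 0 genes and 0 members under every alternative filter, scaling, pseudocount and trend tried; when 1 library was left out, the calls ran between 0 and 4960 for all genes and between 0 and 57 for members, the highest without WT 5. The median difference of the members (-1.07) was 0.67 with quantile normalization, 0.65 with libraries centred on their median and WT 4 left out, 0.55 with quantile normalization and WT 4 left out, and -3.18 to 0.58 with 1 library left out. For the large subunit (-0.24) these were 0.67, 0.63, 0.52 and -0.71 to 0.56, and with a filter of log2 5 the median was 0.052. For the small subunit (-2.09) they were 0.60, 0.67, 0.59 and -5.67 to 0.59. The 27 members above both WT values became 27 to 72, and the 1 below both 2 to 50, with 1 library left out; 2 lay below both with centring and 2 with quantile normalization. Rps26 was 0.50 and 0.38 with centring and quantile normalization without WT 4, and -9.78 to 0.42 with 1 library left out. In the same order Rpl37a was 0.87, 0.76 and -9.32 to 0.80, Rps27l 0.40, 0.27 and -9.36 to 0.32, and Rps19 0.62, 0.56 and -8.78 to 0.54, with 0.20 for Rps19 under quantile normalization of all 4. Over 10 named genes, 108 of 129 values kept direction and side of the threshold, 13 reversed and 8 passed it, all 8 without WT 5. The settings with WT 4 left out and another scaling, and the one without the 3 pseudogenes, were chosen after seeing the data. The cause of the changes was not tested. No paired analysis was possible because the YBX1-/- replicates (1, 3) and the WT replicates (4, 5) share no number. Depth is unknown, so low members such as Rps10 and Rpl39l have no error from counting, and 2 libraries a group limit every comparison.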

Other observations

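Ribosomal protein genes whose symbols fall outside the naming pattern were looked at after the values of the members were known. Rps3a1, which encodes a small-subunit protein, was at 10.61 and 10.94 in YBX1-/- cells, against 9.63 and 10.27 in WT cells, above both WT libraries. Fau, whose product is cleaved into a ubiquitin-like protein and the small-subunit protein RPS30, was at 9.65 and 10.47 in YBX1-/- cells, against 8.98 and 9.73 in WT cells, and its YBX1-/- values lay on both sides of WT 5. Rack1, a scaffold protein gene of the small subunit, was at 11.87 and 12.20 in YBX1-/- cells, against 16.45 and 11.44 in WT cells, and was high in WT 4. Rpl36al, a paralog of Rpl36a, was at 6.06 and 6.10 in YBX1-/- cells, against 11.51 and 5.16 in WT cells. Limma gave adjusted p-values of 0.826 to 0.869 for these 4 genes.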
